A study of Mus musculus with 9 samples.

Results

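The 7 genes described here belong to the mevalonate pathway of cholesterol synthesis and to the machinery that controls it. They were chosen by name, as Hmgcs1, Fdft1, Sqle, Srebf2, Srebf1, Scap and Insig1, and each was found under its Entrez number among the 36528 genes counted in every library. All 7 passed the filter on low counts, which kept 12250 genes for testing. The RNA came from brain myeloid cells of mice aged 11 to 12 months, sorted by Cd11b, an integrin chain on microglia and other myeloid cells. In the Tau-P301L group were 5 libraries from mice with a transgene for tau carrying the P301L mutation of inherited frontotemporal dementia, with libraries 1 and 2 from females and libraries 3, 4 and 5 from males. The wild-type (WT) group held 4 libraries from littermates without the transgene, with libraries 1 and 2 from females and libraries 3 and 4 from males. The sources used here give neither the promoter of the transgene nor whether animals were pooled. Since no label ties a library to its own mouse, the p-values describe the spread between samples, which may be technical. The counts cover mouse genes and do not show how strongly a human tau transgene was expressed.

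Cells make cholesterol from acetyl-CoA through mevalonate, farnesyl diphosphate, squalene and lanosterol. The enzymes of this route are switched on together by SREBP-2, the product of Srebf2, while SREBP-1, the product of Srebf1, acts more on fatty acid genes. Both are made as membrane proteins of the endoplasmic reticulum. The sterol sensor SCAP carries them to the Golgi, where proteases release the part that enters the nucleus. When sterols are plentiful, INSIG1 holds SCAP back, and SREBP raises the Insig1 gene itself, which closes a feedback loop. In the adult brain astrocytes and oligodendrocytes make much of the cholesterol, and microglia also take up lipid from myelin and dying cells.

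SREBP proteins bind sterol regulatory elements in promoters, often beside boxes for the factors NF-Y and Sp1. Promoter windows from RefSeq on GRCm38.p6, from 250 bases before to 50 bases after an annotated start, were at hand for 5 of the 7 genes, in 8 windows. The windows of Hmgcs1, Srebf2 and Insig1 are shown because these genes are known SREBP-2 targets. Capitals mark exact matches on either strand to TCACNCCAC (a form of the sterol regulatory element), CACGTG (E-box), CCAAT (NF-Y box) and GGGCGG (GC box, the Sp1 motif). No matches overlapped each other in the windows of the members.
Hmgcs1, chr13:119690101-119690400, + strand: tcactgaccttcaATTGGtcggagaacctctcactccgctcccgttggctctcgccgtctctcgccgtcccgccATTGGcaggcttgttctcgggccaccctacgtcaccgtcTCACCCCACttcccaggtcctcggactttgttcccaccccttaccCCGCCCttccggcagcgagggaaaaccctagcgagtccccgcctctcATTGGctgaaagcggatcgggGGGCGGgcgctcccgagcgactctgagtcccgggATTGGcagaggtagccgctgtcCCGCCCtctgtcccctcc
Srebf2, chr15:82147019-82147318, + strand: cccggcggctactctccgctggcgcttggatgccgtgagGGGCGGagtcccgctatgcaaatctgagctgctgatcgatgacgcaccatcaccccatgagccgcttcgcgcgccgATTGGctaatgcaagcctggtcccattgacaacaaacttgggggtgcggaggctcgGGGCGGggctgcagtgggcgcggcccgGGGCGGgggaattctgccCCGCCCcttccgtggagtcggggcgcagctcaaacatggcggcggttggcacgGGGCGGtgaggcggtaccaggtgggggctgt
Insig1, chr5:28071162-28071461, + strand: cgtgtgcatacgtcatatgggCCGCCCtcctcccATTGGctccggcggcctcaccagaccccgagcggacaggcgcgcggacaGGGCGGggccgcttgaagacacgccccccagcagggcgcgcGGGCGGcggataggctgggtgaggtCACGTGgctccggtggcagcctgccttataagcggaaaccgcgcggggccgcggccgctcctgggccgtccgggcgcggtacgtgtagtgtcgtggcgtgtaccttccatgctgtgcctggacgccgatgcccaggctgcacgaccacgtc
The Hmgcs1 window held the sterol regulatory element 137 bases before the start, with 4 NF-Y boxes and 3 GC boxes. Of all 32851 promoter windows in the table, 1.24% held this element. The Srebf2 window held 1 NF-Y box and 5 GC boxes, and that of Insig1 an E-box 101 bases before the start, 1 NF-Y box and 3 GC boxes. Over all windows 37.4% held the NF-Y box, 35.7% the GC box and 7.15% the E-box. These exact letters of the sterol regulatory element were not found in the windows of Srebf2, Insig1, Srebf1 or Scap, which says nothing of other forms of it.

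The Tau-P301L libraries held 1494727 to 2934587 reads counted in genes, against 2681666 to 3793606 in the WT libraries (two-sided exact permutation p = 0.0873, adjusted p = 0.571 over 9 library measures). At these depths 3 reads correspond to 0.791 to 2.01 CPM, the read count scaled to a common library size, before the correction for library composition. Microglial markers were abundant, with a summed level over 8 genes of 6762 to 12215 CPM in Tau-P301L and 8057 to 10866 CPM in WT libraries. The 10 oligodendrocyte markers summed to 337 to 1510 CPM in Tau-P301L and 526 to 746 CPM in WT libraries, and the 8 astrocyte markers to 316 to 719 CPM in Tau-P301L and 327 to 424 CPM in WT libraries. Of the microglial markers 7 of 8 had a lower estimate in Tau-P301L (median log2 fold change -0.24). Of the tested astrocyte markers 6 of 7 had a higher estimate in Tau-P301L (median log2 fold change 0.56), and of the neuron markers 7 of 7 had a lower one (median -0.44), with summed neuron levels of 103 to 186 CPM in Tau-P301L and 106 to 219 CPM in WT libraries. The tested oligodendrocyte markers were split, with 4 higher and 4 lower (median -0.009). So were the endothelial markers (1 and 1) and the monocyte and neutrophil markers (2 and 2), while border macrophage markers had 1 higher and 3 lower. Monocyte and neutrophil markers summed to 14.7 to 225 CPM in Tau-P301L and 60.1 to 75.8 CPM in WT libraries. The endothelial marker Cldn5 had no read in any library. No marker passed the test, the smallest exact permutation p for a marker sum was 0.183 (adjusted p = 0.571), and the part of these cells in the levels below was not tested. In a sorted population, fewer cells of a type and less RNA per cell cannot be told apart. Mitochondrial genes took 10.2 to 23.1% of reads in Tau-P301L and 9.3 to 20.0% in WT libraries. Tau-P301L libraries 3 and 5 had 9928 and 9063 genes with 10 reads or more, fewer than the 10589 to 12101 of the other libraries. Library 3 also had the highest mitochondrial share. Library 5 had the fewest reads of all libraries (1494727), which lowers a count of genes with 10 reads or more, and the highest oligodendrocyte and astrocyte sums.

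No member passed the threshold for a difference between the genotypes in edgeR's quasi-likelihood test adjusted over all 12250 genes. The estimate was higher in Tau-P301L for Sqle, Hmgcs1, Srebf2 and Fdft1 and lower for Scap, Srebf1 and Insig1, with a median log2 fold change of 0.09. The largest estimates, for Sqle upward and Scap downward, both had intervals that include no change. Among all genes 1 passed, or 0.00816%, and 6.35% had an unadjusted p under 0.05, while 0 of the 7 members did. The libraries of the groups did not overlap for 2.48% of all genes and for 0 of the members. DESeq2 called 0.23% of the genes it tested and 0 members. Its unadjusted p was under 0.05 only for Sqle among the members (0.0488), and for 977 of 12250 genes.

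The read depth per gene was low. The 7 genes drew 1912 reads in all, or 79 to 358 reads per library. Sqle had 93 reads over the 9 libraries, Insig1 168, Fdft1 265, Hmgcs1 276, Srebf2 335, Srebf1 367 and Scap 408. By mean CPM they stood between the 11.1 percentile (Sqle) and the 50.6 percentile (Scap) of the genes tested, whose median depth was 41 reads per library. The standard error of the log2 fold change from counting alone would be 0.149 for Scap to 0.333 for Sqle. The fitted standard errors ran from 0.43 for Scap to 0.75 for Sqle, against a median of 0.46 over all genes, and lay above the counting errors for every member. The fit adds a spread between libraries that is estimated in part from other genes. This comparison therefore does not show excess spread for any single member.

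**Figure D1:**
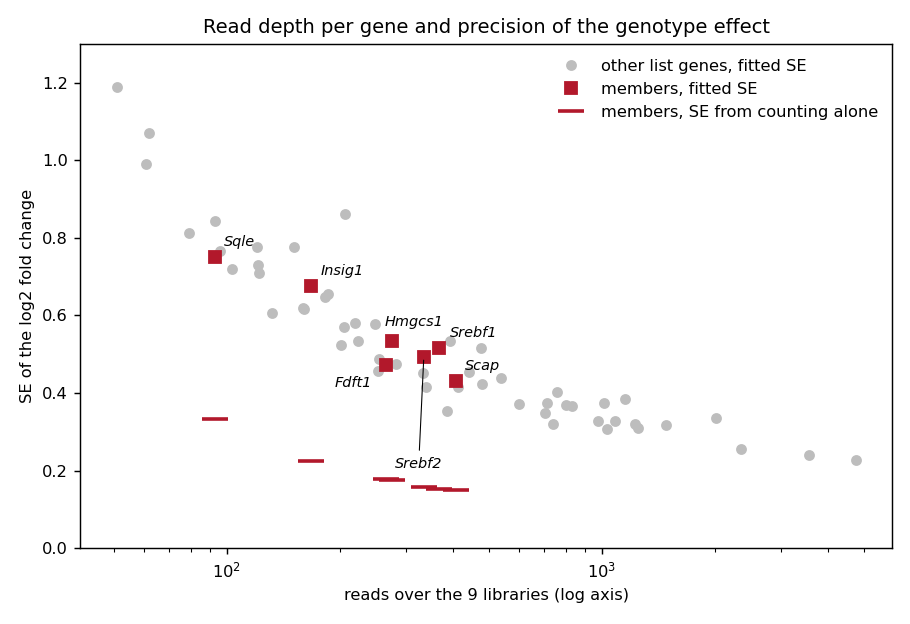
Reads per gene over the 9 libraries (x, log axis) against the standard error of the log2 fold change of Tau-P301L over WT (y), for the 7 members (red squares) and the other tested genes of the pathway lists (grey points). Red bars give the error that counting alone would leave, 0.149 to 0.333, below the fitted errors of 0.43 to 0.75.

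Hmgcs1 (Entrez 208715, chr13:119690351-119708260 on GRCm38.p6) encodes the cytosolic HMG-CoA synthase, which joins acetyl-CoA and acetoacetyl-CoA early in the pathway. With CPM corrected for composition by the trimmed mean of M-values (TMM), it had 17.2, 6.07, 17.0, 14.5 and 8.38 CPM in Tau-P301L libraries 1 to 5, against 5.21, 13, 3.44 and 15.8 CPM in WT libraries 1 to 4. These rested on 54, 17, 38, 34 and 12 reads in Tau-P301L and 17, 38, 9 and 57 reads in WT libraries. Both groups held low and high libraries, and they overlapped over most of their range. Its level was 12.6 ± 5.11 CPM in Tau-P301L libraries (SD, n = 5) and 9.35 ± 5.96 CPM in WT libraries (SD, n = 4). The log2 fold change was 0.42 (SE 0.54, 95% interval -0.70 to 1.53, edgeR adjusted p = 0.91), and it was 0.09 without WT library 3 and 0.94 without WT library 4.

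Fdft1 (Entrez 14137, chr14:63145150-63181687) encodes squalene synthase, the first enzyme committed to sterols. It had 10.8, 7.50, 14.8, 12.4 and 11.2 CPM in Tau-P301L libraries 1 to 5, against 14.1, 5.46, 8.03 and 13.6 CPM in WT libraries 1 to 4. The read counts were 34, 21, 33, 29 and 16 in Tau-P301L and 46, 16, 21 and 49 in WT libraries. Tau-P301L library 3 was the highest of all, and the other 4 lay within the WT range. Its level was 11.3 ± 2.65 CPM in Tau-P301L libraries (SD, n = 5) and 10.3 ± 4.23 CPM in WT libraries (SD, n = 4), and the log2 fold change was 0.09 (SE 0.47, 95% interval -0.90 to 1.07, edgeR adjusted p = 0.981). The sign changed without WT library 2 (-0.08) or 3 (-0.09). Fdft1 shares 774 bases with the cathepsin B gene Ctsb, which had 802 to 1615 reads per library and a log2 fold change of 0.28 (SE 0.22, edgeR adjusted p = 0.844). The strand setting of the counting is not stated in the labels, so reads in the shared bases cannot be told apart.

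Sqle (Entrez 20775, chr15:59315092-59331193) encodes squalene epoxidase, which uses oxygen and is a rate-limiting enzyme of the sterol route. It had 2.54, 9.28, 9.42, 2.14 and 4.89 CPM in Tau-P301L libraries 1 to 5, against 2.15, 1.36, 1.53 and 3.05 CPM in WT libraries 1 to 4. These rested on 8, 26, 21, 5 and 7 reads in Tau-P301L and 7, 4, 4 and 11 reads in WT libraries; the lowest WT values lay close to 3 reads. Tau-P301L libraries 2, 3 and 5 lay above all WT libraries, while libraries 1 and 4 lay within their range. Sqle averaged 5.65 ± 3.53 CPM in Tau-P301L libraries (SD, n = 5) and 2.02 ± 0.761 CPM in WT libraries (SD, n = 4), with all 5 Tau-P301L libraries above the WT mean. Tau-P301L library 4 exceeded that mean only slightly, at 2.14 CPM on 5 reads. The log2 fold change was 1.45 (SE 0.75, 95% interval -0.12 to 3.01, edgeR adjusted p = 0.789), a 2.73-fold ratio with an interval of 0.923 to 8.08. DESeq2 gave 1.49 with an adjusted p of 0.613. Without Tau-P301L library 2 the log2 fold change was 0.998, and without Tau-P301L libraries 3 and 5 it was 1.06.

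Summed over the 3 enzymes, the level was 30.5, 22.9, 41.3, 29.1 and 24.4 CPM in Tau-P301L libraries 1 to 5, against 21.5, 19.8, 13 and 32.4 CPM in WT libraries 1 to 4. Each Tau-P301L sum exceeded those of WT libraries 1, 2 and 3, and WT library 4 lay above all but Tau-P301L library 3. The sums rested on 34 to 117 reads per library. Over the 21 sterol synthesis enzymes described below, the sums were 111 to 189 CPM in Tau-P301L and 102 to 174 CPM in WT libraries. There Tau-P301L libraries 4 and 5 (111 and 112 CPM) lay below WT libraries 1 and 2 (135 and 139 CPM).

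Srebf2 (Entrez 20788, chr15:82147269-82205379) encodes SREBP-2. It had 6.04, 20.0, 28.3, 12.0 and 10.5 CPM in Tau-P301L libraries 1 to 5, against 12.6, 9.55, 6.89 and 18.6 CPM in WT libraries 1 to 4. The read counts were 19, 56, 63, 28 and 15 in Tau-P301L and 41, 28, 18 and 67 in WT libraries. Tau-P301L libraries 2 and 3 stood above every WT library, and library 1 below every one. Its level was 15.3 ± 8.8 CPM in Tau-P301L libraries (SD, n = 5) and 11.9 ± 5.01 CPM in WT libraries (SD, n = 4), and its log2 fold change was 0.33 (SE 0.49, 95% interval -0.70 to 1.36, edgeR adjusted p = 0.929). It was 0.00 without Tau-P301L library 2, 0.02 without Tau-P301L library 3, 0.07 without WT library 3, 0.64 without WT library 4, 0.58 without Tau-P301L library 1 and 0.10 without Tau-P301L libraries 3 and 5. The microRNA gene Mir33, which lies inside Srebf2, had 0 reads in every library of these counts.

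Srebf1 (Entrez 20787, chr11:60199084-60224186) encodes SREBP-1. It had 19.4, 10.0, 23.3, 3.85 and 4.19 CPM in Tau-P301L libraries 1 to 5, against 19.6, 12.3, 13.4 and 21 CPM in WT libraries 1 to 4. The read counts were 61, 28, 52, 9 and 6 in Tau-P301L and 64, 36, 35 and 76 in WT libraries. Tau-P301L libraries 2, 4 and 5 lay below every WT library and library 3 above every one. Its level was 12.1 ± 8.86 CPM in Tau-P301L libraries (SD, n = 5) and 16.6 ± 4.39 CPM in WT libraries (SD, n = 4), and its log2 fold change was -0.43 (SE 0.52, 95% interval -1.51 to 0.64, edgeR adjusted p = 0.903). It was -1.01 without Tau-P301L library 3, -0.20 without Tau-P301L library 4 and -0.78 without Tau-P301L libraries 3 and 5. The gene shares 114 bases with Rai1, which had 79 to 423 reads per library and a log2 fold change of -0.50 (SE 0.30, edgeR adjusted p = 0.789).

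Per length, the ratio of Srebf1 to Srebf2 in the deposited RPKM values (reads scaled for gene length and library) was 3.86, 0.601, 0.991, 0.386 and 0.48 in Tau-P301L libraries 1 to 5, against 1.88, 1.54, 2.34 and 1.36 in WT libraries 1 to 4. The ratio was above 1 in 1 of 5 Tau-P301L libraries and in 4 of 4 WT libraries. Tau-P301L library 3 lay close to 1, and Tau-P301L libraries 4 and 5 rested on 9 and 6 reads of Srebf1. The ratio of Srebf1 to Srebf2 was chosen after its values were seen and has no test.

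Scap (Entrez 235623, chr9:110333288-110384949) encodes the sterol sensor and escort of both SREBPs. It had 8.58, 13.2, 6.28, 20.5 and 12.6 CPM in Tau-P301L libraries 1 to 5, against 21.8, 25.6, 23.7 and 15.5 CPM in WT libraries 1 to 4. The read counts were 27, 37, 14, 48 and 18 in Tau-P301L and 71, 75, 62 and 56 in WT libraries. Of the Tau-P301L libraries 4 of 5 lay below every WT library, and library 4 lay above WT library 4. Scap averaged 12.2 ± 5.45 CPM in Tau-P301L libraries (SD, n = 5) and 21.6 ± 4.37 CPM in WT libraries (SD, n = 4). The log2 fold change was -0.82 (SE 0.43, 95% interval -1.72 to 0.08, edgeR adjusted p = 0.789), a ratio of 0.565 with an interval of 0.303 to 1.05. DESeq2 gave -0.82 with an adjusted p of 0.645. With any single library left out the estimate stayed between -1.09 and -0.66, and without Tau-P301L libraries 3 and 5 it was -0.62.

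Insig1 (Entrez 231070, chr5:28071412-28078662) encodes the protein that retains SCAP in the endoplasmic reticulum and is itself a target of SREBP. It had 4.13, 1.43, 19.7, 4.28 and 3.49 CPM in Tau-P301L libraries 1 to 5, against 5.52, 7.16, 4.21 and 11.6 CPM in WT libraries 1 to 4. The read counts were 13, 4, 44, 10 and 5 in Tau-P301L and 18, 21, 11 and 42 in WT libraries. Tau-P301L library 3 stood alone above all others, and the remaining 4 lay at 1.43 to 4.28 CPM, around or under the lowest WT value of 4.21 CPM. Its level was 6.61 ± 7.42 CPM in Tau-P301L libraries (SD, n = 5) and 7.13 ± 3.23 CPM in WT libraries (SD, n = 4), and its log2 fold change was -0.39 (SE 0.68, 95% interval -1.80 to 1.02, edgeR adjusted p = 0.938). It was -1.09 without Tau-P301L library 3, -0.80 without WT library 3, -0.05 without Tau-P301L library 2 and -1.06 without Tau-P301L libraries 3 and 5. The gene lies within the long noncoding gene Gm35223, which had 0 reads.

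**Figure D2:**
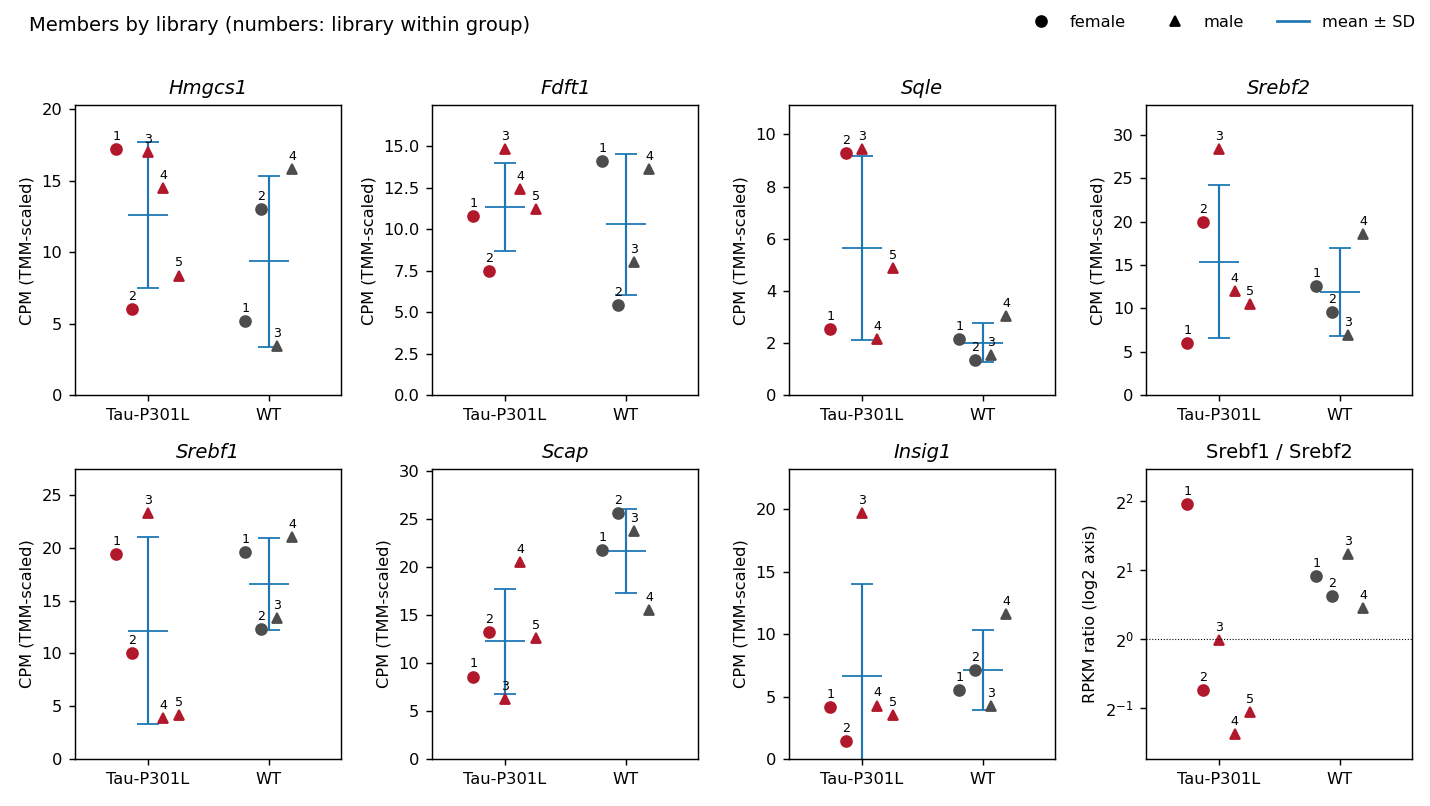
CPM (TMM-scaled, y) of each member in the 5 Tau-P301L libraries (red, left) and the 4 WT libraries (grey, right), with circles for females, triangles for males, and blue bars for mean ± SD; the lower bar of Insig1 in Tau-P301L runs below the axis. The last panel gives the RPKM ratio of Srebf1 to Srebf2 on a log2 axis, which is above 1 in 1 of 5 Tau-P301L and 4 of 4 WT libraries. Tau-P301L library 3 lies at 0.991, and the ratio was chosen after its values were seen. For Sqle 3 of 5 Tau-P301L libraries lie above all WT libraries, and for Scap 4 of 5 lie below.

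The summed level of the 4 regulators was 30.7 to 77.6 CPM in Tau-P301L (46.3 ± 18.2, SD, n = 5) and 48.2 to 66.7 CPM in WT libraries (57.2 ± 7.83, SD, n = 4). Tau-P301L library 3 held the highest of these sums and the other 4 Tau-P301L libraries lay below every WT library. Over the 15 SREBP control genes described below, the sums were 376 to 498 CPM in Tau-P301L and 445 to 487 CPM in WT libraries. There Tau-P301L library 1 lay above every WT library, and libraries 4 and 5 below every one. Over all 7 members the sums were 76.0 ± 24.7 CPM in Tau-P301L libraries (SD, n = 5) and 78.9 ± 15.8 CPM in WT libraries (SD, n = 4).

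Compared per length in RPKM over the 9 libraries, the pooled mean of Scap was the highest at 0.856 ± 0.356 (SD), followed by Hmgcs1 at 0.735 ± 0.358, Srebf1 at 0.73 ± 0.374 and Fdft1 at 0.673 ± 0.203. Insig1 followed at 0.63 ± 0.527, Srebf2 at 0.596 ± 0.315 and Sqle at 0.358 ± 0.284. No neighbours in this order differed by more than their SD. Srebf2 was above Sqle in 9 of 9 libraries, whereas Hmgcs1 was above Srebf1 in 4 of 9. The order of the means was not the same in both groups, which was not tested. In Tau-P301L libraries Hmgcs1 was first (0.836 ± 0.341 RPKM, SD, n = 5), then Fdft1 (0.707), Srebf2 (0.667), Scap (0.641 ± 0.284), Srebf1 (0.633), Insig1 (0.616) and Sqle (0.503 ± 0.315). In WT libraries Scap was first (1.13 ± 0.237 RPKM, SD, n = 4), then Srebf1 (0.852), Insig1 (0.648), Fdft1 (0.631), Hmgcs1 (0.609), Srebf2 (0.508) and Sqle (0.177 ± 0.0647).

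**Figure D3:**
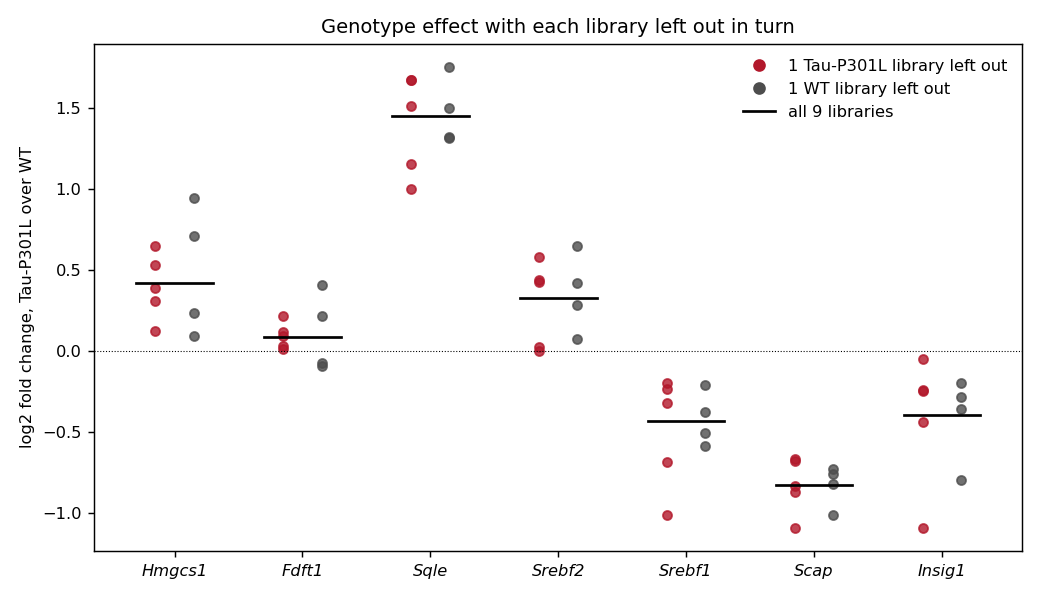
Log2 fold change of Tau-P301L over WT (y) for each member with all 9 libraries (black line) and with 1 Tau-P301L library (red) or 1 WT library (grey) left out. Sqle stays between 0.998 and 1.75 and Scap between -1.09 and -0.66, whereas Fdft1 crosses 0 and Srebf2 reaches it.

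Sex was the other labelled factor. Insig1 had the largest estimate for males over females, with a log2 fold change of 1.04 (SE 0.69, unadjusted p = 0.148 by edgeR), and the other members had values of -0.20 (Srebf1) to 0.33 (Fdft1). No member passed, and 0.049% of all genes did. The genotype estimate of Insig1 was 0.23 in males alone and -1.17 in females alone, a difference of 1.38 in the interaction term (SE 1.34, 95% interval -1.41 to 4.18, edgeR adjusted p = 0.999). For Scap the estimates were -0.56 in males and -1.12 in females, for Sqle 1.24 in males and 1.71 in females, and for Srebf1 -0.69 in males and -0.12 in females. No member passed the interaction test, nor did any gene (0.0% of 12250, with 466 at an unadjusted p under 0.05, while DESeq2 called 4). The standard errors of the interaction were 0.89 to 1.52 for the members.

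The members were then set beside the other genes of sterol metabolism, in 6 lists with 78 genes, of which 60 were tested, and SDs given for their genes are over 5 Tau-P301L and 4 WT libraries. None passed, 32 estimates were higher and 28 lower in Tau-P301L, and the median log2 fold change was 0.02, against 6118 higher, 6132 lower and a median of 0.00 over all genes. By edgeR 2 of the 60, Rabggtb and Soat1, had an unadjusted p under 0.05, a share under the 6.35% of all genes. DESeq2 gave an unadjusted p under 0.05 for these and for Sqle (0.0488), Hsd17b7 (0.0435), Acaca (0.0419) and Nr1h2 (0.0372). It did so for 977 of 12250 genes, so the lower share was not seen with DESeq2. Of 21 sterol synthesis enzymes 14 were tested, with 9 estimates higher, 5 lower and a median of 0.27, or 0.21 over the 11 without the members. The other 7 were too low to test, among them Acat2, Mvk, Mvd, Idi1, Fdps and Tm7sf2. Hsd17b7, Ebp and Dhcr7, which act between lanosterol and cholesterol, had log2 fold changes of 1.46 (SE 0.73), 0.92 (SE 0.58) and 0.995 (SE 0.81). Of the other tested enzymes of that stretch, named after their values were seen, Msmo1 had a value of 0.33, Nsdhl -0.08, Lbr -0.40 and Sc5d -0.51. Hsd17b7 rested on 3 to 42 reads per library, with 7.38 ± 6.86 CPM in Tau-P301L and 2.80 ± 1.93 CPM in WT libraries (edgeR adjusted p = 0.776). Cyp51, the lanosterol demethylase, had 14.4 ± 7.59 CPM in Tau-P301L and 15.6 ± 9.62 CPM in WT libraries, a log2 fold change of -0.10 (SE 0.53).

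Among the 15 SREBP control genes 14 were tested, with 5 estimates higher, 9 lower and a median of -0.20, or -0.12 over the 10 that are not members. Besides Scap, Srebf1 and Insig1, the lower estimates included Syvn1, a ubiquitin ligase of the endoplasmic reticulum, with 27.4 ± 11.2 CPM in Tau-P301L and 40.9 ± 4.8 CPM in WT libraries (log2 fold change -0.56, SE 0.37, edgeR adjusted p = 0.803). Faf2, which helps extract proteins from that membrane, had a value of -0.31 (SE 0.35). Insig2, the relative of Insig1, had 18.1 ± 8.86 CPM in Tau-P301L and 18.8 ± 10.5 CPM in WT libraries. Mbtps1 and Mbtps2, the Golgi proteases that release SREBP, had values of 0.01 and -0.19. These 3 genes were named after their values were seen.

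**Figure D4:**
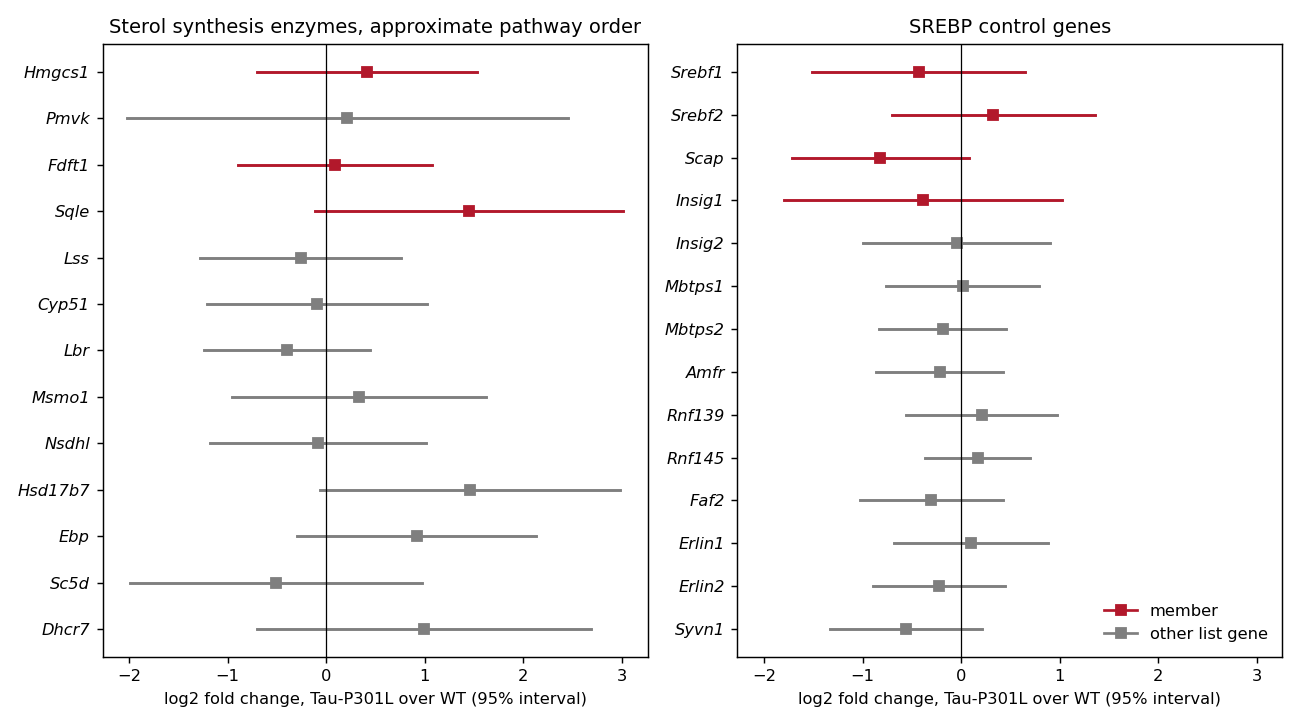
Log2 fold change of Tau-P301L over WT with its 95% interval (x) for 13 of the 14 tested sterol synthesis enzymes (left) and the 14 tested SREBP control genes (right), with the 7 members in red and the other genes in grey. Every interval shown includes 0, and the estimates run from -0.82 for Scap to 0.33 for Srebf2 among the members on the right.

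The list of sterol uptake genes had 3 of 5 tested, each with a lower estimate and a median of -0.27, which was 0.03 without WT library 2. Stard4, a sterol carrier, had a value of -0.27 (SE 1.19), and Mylip, a ubiquitin ligase induced by LXR, one of -0.13 (SE 0.23). Of the SREBP-1 fatty acid genes 12 of 15 were tested, with 8 estimates higher, 4 lower and a median of 0.23. Acaca, acetyl-CoA carboxylase, had 10.5 to 16.8 CPM in Tau-P301L and 5.21 to 8.52 CPM in WT libraries. Each of the 5 Tau-P301L values exceeded the 4 of the WT libraries, the single case of this among the 60 tested list genes and a share under the 2.48% of all genes, with a log2 fold change of 0.89 (SE 0.46, edgeR adjusted p = 0.788). Acly, ATP citrate lyase, and Elovl5, a fatty acid elongase, had values of 0.56 (SE 0.34) and 0.61 (SE 0.37), and Gpam, which starts glycerolipid synthesis, one of -0.71 (SE 0.42).

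The isoprenoid branch, which leaves the pathway at farnesyl diphosphate, had 11 of 11 genes tested, with 8 estimates higher, 3 lower and a median of 0.10. Rabggtb, the beta chain of the enzyme that prenylates Rab proteins, had 15.4 to 54.7 CPM in Tau-P301L and 7.84 to 17.7 CPM in WT libraries. Its log2 fold change was 1.32 (SE 0.44, unadjusted p = 0.00716 and adjusted p = 0.681 by edgeR), with 4 of 5 Tau-P301L libraries above every WT library. Pdss1, of coenzyme Q synthesis, and Pggt1b, a geranylgeranyl transferase chain, had values of 0.80 (SE 0.42) and 0.43 (SE 0.24). Of the oxysterol enzymes and LXR genes 6 of 11 were tested, with 2 estimates higher, 4 lower and a median of -0.39. Soat1, the acyltransferase that stores cholesterol as esters, had 43.2 to 103.0 CPM in Tau-P301L and 36.3 to 62.7 CPM in WT libraries. Its log2 fold change was 0.77 (SE 0.32, unadjusted p = 0.0243 and adjusted p = 0.758 by edgeR), with 4 of 5 Tau-P301L libraries above every WT library. Soat2, its paralog, had a value of 0.95 (SE 0.78), and Nr1h2, the LXR beta gene, one of -1.56 (SE 0.86) on 0 to 56 reads per library. In females alone and males alone the values were 0.13 and 1.34 for Soat1 and 2.08 and 0.07 for Soat2. For Nr1h2 they were 0.32 and -3.31. No gene passed the edgeR interaction test.

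Across the 9 libraries the members did not form a single block in log2 CPM. Of their 21 pairs 15 had a positive and 6 a negative Pearson r, with a median of 0.18, and all 6 negative values involved Scap. For Scap and Insig1 the sign was not stable, with r = -0.281 but Spearman rho = 0.117. Without Tau-P301L libraries 1 and 3 their r was 0.398. By Spearman, Sqle and Insig1 also had a negative value (-0.0833). Sqle and Scap ran opposite to each other, with r = -0.749 (two-sided exact permutation p of pairings = 0.0213, adjusted p = 0.233 over the 21 pairs) and Spearman rho = -0.867 (exact permutation p = 0.00451, adjusted p = 0.0947). Without Tau-P301L libraries 2 and 3, the farthest from the median of Sqle, r was -0.681. Sqle and Srebf2 ran together, with r = 0.747 (exact permutation p = 0.0222, adjusted p = 0.233) and rho = 0.683 (exact permutation p = 0.0503, adjusted p = 0.412). Without the same pair of libraries r was 0.303, so this relation rests on them. No pair passed after adjustment. All libraries enter each of these values, so genotype and sex are part of them, and the CPM of a library share its depth.

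The genes most alike to each member over the 9 libraries were sought among 5361 genes with a mean of at least 20 CPM, and their r is a description of the highest of many values. For Sqle they were Cd180, a surface protein related to Toll-like receptors (r = 0.934), Lat2, an adaptor of immune receptors (0.924), and Nes, an intermediate filament (0.885). For Scap they included the selectin ligand gene Selplg (0.958) and Plekhg2 (0.957). For Insig1 they were Casp8, a protease of cell death (0.955), Fcgr3, a receptor for antibodies (0.945), and Nup88, a nuclear pore protein (0.903). For Hmgcs1 they were Csnk1g3 (0.962), Dock11 (0.952) and Kdm4c (0.931), and for Fdft1 Litaf (0.924), Plaa (0.916) and Taf7 (0.858). For Srebf2 they were Rasal2 (0.893), Psd4 (0.89) and Il6st (0.878), and for Srebf1 Zkscan1 (0.941), Atp5a1 (0.931) and a gene without a symbol in the table used (0.901).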

How the data were processed

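RNA of 9 libraries of sorted Cd11b+ brain myeloid cells was aligned with GSNAP to GRCm38, per the submitters' processing notes, while the sources used here give no versions, annotation or strand setting. Each file holds, per the file headers, the authors' counts of reads aligned uniquely to a gene. The deposited RPKM values are the same counts scaled per gene and per library, per the file headers, and served only for levels per length. Symbols and coordinates were taken from RefSeq (GRCm38.p6), which named 31049 of 36528 Entrez numbers. Levels are CPM after TMM scaling.

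Counts were tested in edgeR 4.0.16 (R 4.3.3) by quasi-likelihood, with genotype and sex in the model, the default low-count filter, robust dispersions and Benjamini-Hochberg adjustment over 12250 genes at 0.05. The interaction was tested in a fit with the product term. Standard errors were derived from the F statistic. Fold changes are log2 of Tau-P301L over WT. The biological coefficient of variation was 0.464, with 6 residual degrees of freedom. The fit was tested on simulated data. Library measures and correlations were compared with exact permutation tests. Promoter motifs were matched exactly on both strands.

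The members and the lists were chosen with earlier results of these data known. Named were the 7 members, in each list every gene past the threshold and otherwise the 4 of smallest p (3 for lists of under 12 genes), Cyp51, and for each member the 3 genes of highest r. Some genes that this rule takes are not reported here. Alternatives were DESeq2 1.42.0, limma-voom (limma 3.58.1), RLE and upper-quartile scaling, other low-count filters, other covariates, each sex alone, and libraries left out. Intervals from reads cover counting error only.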

Additional observations from a re-analysis of the deposited data

Results flagged for a closer look

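Insig1 in Tau-P301L library 3 stood at 19.7 CPM (44 reads), against 1.43 to 4.28 CPM in the other 4 Tau-P301L libraries and 4.21 to 11.6 CPM in the WT libraries. Its gap to the next library took 0.844 of the range of the group, past Dixon's 95% critical value for 5 samples. Chance flags about 1 in 20 groups, and 54 groups of 27 genes were examined, of which this was the only one past the value. Library 3 also had the highest mitochondrial share of reads, 23.1%. With the mitochondrial share in the model the log2 fold change of Insig1 was -0.65 (SE 0.73), and without the sex term it was -0.12. Without library 3 the log2 fold change of Insig1 was -1.09, against -0.39 with all libraries.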

How the results depend on the processing

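Of 361 recomputed values 324 kept their direction and their side of the threshold, or stayed within the spread allowed. A further 17 changed sign, 5 of them member effects and 12 interaction terms, and 20 moved. List medians were judged by the spread alone, so a median that crossed 0 is not among the 17. No member passed the threshold under any alternative. For members 133 of 138 kept their direction. The sign changed for Fdft1 in females alone (-0.10) and among the fits that left out 1 library (-0.0903 to 0.41), for Srebf2 among such fits (-0.000352 to 0.64) and for Insig1 in males alone (0.23). The stricter filter (20 reads in 4 libraries) left out Sqle and Insig1, so it gave no value for them. The interaction term changed sign among the fits that left out 1 library for Hmgcs1 (-0.67 to 1.58), Fdft1 (-0.50 to 0.88), Sqle (-1.16 to 0.72) and Srebf2 (-0.42 to 1.29), and for Srebf2 without Tau-P301L libraries 3 and 5 (-0.33). Genes called for genotype numbered 1 (Rfk) in the reported edgeR fit, 27 with DESeq2, 26 without a low-count filter and 0 with the mitochondrial share in the model (735 at an unadjusted p under 0.05), in females alone (660), in males alone (673) and without Tau-P301L libraries 3 and 5 (559). With 1 library left out the count was 0 to 1 (350 to 853 at an unadjusted p under 0.05 where it was 0). It was 1 without Tau-P301L library 2 (915 at an unadjusted p under 0.05) and without Tau-P301L library 4 (1188). Genes called for the interaction numbered 0 in the reported fit, 4 with DESeq2, 22 without a filter, 1 without Tau-P301L libraries 3 and 5 and 0 to 4 with 1 library left out. With 1 library left out, the list medians ran from 0.00969 to 0.47 (isoprenoid), -0.50 to 0.14 (oxysterol), -0.39 to 0.03 (uptake), 0.10 to 0.58 (sterol enzymes), -0.27 to -0.10 (SREBP control) and 0.08 to 0.36 (fatty acid genes). The cause of these changes was not tested. Upper-quartile and RLE scaling moved the median of all genes by under 0.1 on the log2 scale. The standard errors of the members, 0.43 to 0.75, exceeded those from counting alone, 0.149 to 0.333. No paired analysis was possible because no label pairs a Tau-P301L library with a WT library.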
